A study of Mus musculus with 3 samples.

Results

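The let-7 axis and the oncofetal RNA-binding genes were examined as 10 genes, Lin28a, Lin28b, Igf2bp1, Igf2bp2, Igf2bp3, Hmga1, Hmga2, Trim71, Arid3b and Dis3l2. They were taken by gene name from the 55401 gene identifiers of the count files, and all 10 had a row in GENCODE M21 (GRCm38, the same assembly as mm10) and a mean count of at least 10. The counts came from bulk RNA-Seq of 3 libraries of mouse maxillary process, the facial prominence that forms most of the upper jaw, at E10.5. All 3 libraries belong to 1 group, Wnt1cre; Rosa26Dlx2/- (OE). In it, Cre driven by Wnt1 is meant to remove a stop cassette from a CAG-driven Dlx2-3xFlag transgene specifically in neural crest-derived cells. Cells of other origin in the same tissue, such as epithelium, endothelium and blood, are not meant to carry the active transgene. Libraries of wild-type embryos were not used here, and every value is a level in OE tissue or a difference between OE libraries. The replicate numbers only name the libraries, and the number of embryos behind each was not given in the sources used here.

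LIN28A and LIN28B bind the let-7 family of microRNA precursors and hold back their maturation, in part by recruiting the uridyl transferases TUT4 and TUT7, after which DIS3L2 degrades the uridylated precursor. Mature let-7 in turn represses mRNAs whose 3′ untranslated region (3′ UTR) pairs with its seed, bases 2 to 8. The textbook targets include the mRNAs of LIN28 itself, of the HMGA chromatin proteins, of the IGF2BP mRNA-binding proteins, of TRIM71 (the mouse homologue of worm lin-41) and of the DNA-binding protein ARID3B. Most of these genes are high in the embryo, low in adult tissue and high again in many tumours, hence the name oncofetal.

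The sequences that tie these genes together are the let-7 seed and its complement. RefSeq (GRCm38) listed 11 mature let-7 and miR-98 sequences in mouse, and 10 of them shared the seed GAGGUAG, shown in capitals in 3 of these and beside the different seed of let-7j.
mmu-let-7a-5p: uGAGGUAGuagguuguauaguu
mmu-let-7g-5p: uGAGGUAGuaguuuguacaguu
mmu-miR-98-5p: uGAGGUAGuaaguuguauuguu
mmu-let-7j: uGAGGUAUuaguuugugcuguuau
LIN28 is known to contact a GGAG motif in the loop of the precursor. GGAG stood in the loop of 9 of 12 let-7 and miR-98 hairpins, against 44 of 633 other mouse hairpins with both arms annotated (6.95%). The loops shown are those of Mirlet7a-1, Mirlet7f-2 and Mirlet7c-1, with GGAG in capitals, and of Mirlet7c-2, where these letters were not found. Mirlet7b and Mir98 also had no GGAG in the loop. A match is a description of the letters and not a measured LIN28 site.
Mirlet7a-1 loop: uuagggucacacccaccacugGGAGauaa
Mirlet7f-2 loop: uuagggucauaccccaucuuGGAGauaa
Mirlet7c-1 loop: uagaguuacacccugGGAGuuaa
Mirlet7c-2 loop: uugggcucugccccgcucugcgguaa

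The 3′ UTR of each gene was searched on the transcript strand for CTACCTC, the complement of the seed, called an 8-mer where an A follows (CTACCTCA). The transcript with the longest coding sequence was used, and the members held 21 matches in all. Lin28b, Igf2bp1, Hmga2 and Trim71 held 4 each, Lin28a held 2, Igf2bp2, Igf2bp3 and Arid3b held 1 each, and Hmga1 and Dis3l2 held 0. Where a 7-mer with A opposite base 1 of let-7 also counted, Arid3b held 5, Hmga2 7 and Igf2bp2 2. All 4 matches of Trim71 and both of Lin28a were 8-mers, as were 3 of the 4 in Igf2bp1 and 1 of the 4 in Hmga2 and in Lin28b. The Hmga1 transcript used has a 3′ UTR of only 111 bases, and its longest annotated 3′ UTR, of 1183 bases, held 1 match. By the longest 3′ UTR of each gene, 1898 of 21037 coding genes (9.02%) held a match, 9 of the 10 members held 1 or more, and 12 coding genes held 4 or more, of which 4 were members. The other 8, chosen after their values were seen, were Nr6a1, Nudt12, Mcf2l, Trim6, D10Wsu102e, Zbtb37, Hic2 and Ptafr. The members other than Dis3l2 are textbook let-7 targets, so their sites are not independent of how they came to be listed.

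The windows below, in the strand of the mRNA, show an 8-mer in each gene that has 1, since these are the letters on which let-7 pairing rests. The capitals mark the match.
Lin28a: agatcgccacaaacCTACCTCActgtgtt
Lin28b: cccgggcgggaagtCTACCTCAtgcaagc
Igf2bp1: tataaatggatgaaCTACCTCAgtcctca
Igf2bp2: cacacaaataaaagCTACCTCAggtgttt
Igf2bp3: gcatttttactcaaCTACCTCAggtattc
Hmga2: ccgacattcaatttCTACCTCAgcatcag
Trim71: ttagtatggattttCTACCTCAattttgg
They lie in GRCm38, all on the minus strand, at chr4:134004544-134004572 for Lin28a, chr10:45381015-45381043 for Lin28b, chr11:95958756-95958784 for Igf2bp1 and chr16:22059466-22059494 for Igf2bp2. The Igf2bp3 window lies at chr6:49086780-49086808, that of Hmga2 at chr10:120364217-120364245 and that of Trim71 at chr9:114509040-114509068. The next Trim71 match followed so closely that its window, tggcaaaaagttgtCTACCTCAcgtcggc at chr9:114509014-114509042, overlaps the one shown. Among coding genes with a 3′ UTR within 25% of the same length, 0.138% held as many matches as Hmga2 and 0.238% as many as Lin28b. The same shares were 0.264% for Igf2bp1, 0.481% for Trim71 and 1.94% for Lin28a. For Igf2bp2, Igf2bp3 and Arid3b, which hold 1 match, they were 11.5%, 12.9% and 12.9%.

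The libraries differed from each other before any gene of this set was considered. Counts on genes were 36544554, 35351031 and 40057435 in OE replicates 1, 2 and 3, and a chi-square test of each gene's counts against the scaled library sizes found 81.5% of the 17115 genes tested beyond counting noise (Benjamini-Hochberg adjusted p under 0.05). This test compares libraries, not conditions. Xist was at 671, 0.309 and 0.558 CPM (counts per 1000000 counts on genes, after TMM scaling), and the 4 Y-linked genes examined had 0 counts in replicate 1 only. The summed CPM of the 9 neuron markers was 273, 24.3 and 35.9, and that of the 7 optic vesicle markers 30.0, 165 and 156. That of the 8 pigment epithelium markers with enough counts was 15.2, 46.9 and 172. The 10 mesenchyme markers, which define the labelled tissue, summed to 1641, 1700 and 1820 CPM. This sum hides different directions, since 6 were higher and 4 lower in replicate 3 than in the other libraries. Prrx1 was at 629, 582 and 419 CPM and Twist1 at 317, 342 and 464 CPM. The 7 epithelial markers summed to 346, 228 and 227 CPM and went in different directions, with Trp63 at 55.4, 29.6 and 11.4 and Krt18 at 86.7, 65.5 and 108 CPM. The 5 red cell markers summed to 2108, 3950 and 4887 CPM and the 4 muscle markers to 24.8, 24.5 and 63.1 CPM. Dlx2, the overexpressed gene, was at 235, 201 and 183 CPM, and without wild-type libraries these values do not show how far the transgene raised it. Replicate 3 also held relatively fewer counts on long genes: its median log2 difference from the other libraries was 0.91 for the shortest and -0.65 for the longest of 20 groups of genes by exonic length.

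All 10 genes were detected with at least 1044 counts in every library. In bulk tissue, fewer cells of a type and less RNA per cell cannot be told apart, which holds for every level and difference that follows. By TPM, which divides counts by exonic length before scaling each library to the same total and so allows genes to be compared, the order of mean levels was Hmga1, Hmga2, Igf2bp2, Igf2bp1, Lin28a, Igf2bp3, Lin28b, Trim71, Arid3b and Dis3l2. Mean TPM was 1382 ± 240 (SD, n = 3) for Hmga1 and 14.1 ± 1.29 (SD, n = 3) for Dis3l2, which placed them 79th and 7202nd among protein-coding genes. Neighbours held their order in all 3 libraries except Igf2bp2 and Igf2bp1, Igf2bp3 and Lin28b, and Trim71 and Arid3b, whose order held in 2 of 3 libraries and whose ratio did not exceed its spread. With 3 libraries an exact sign permutation test cannot go below p = 0.25, so the order was not tested.

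**Figure D1:**
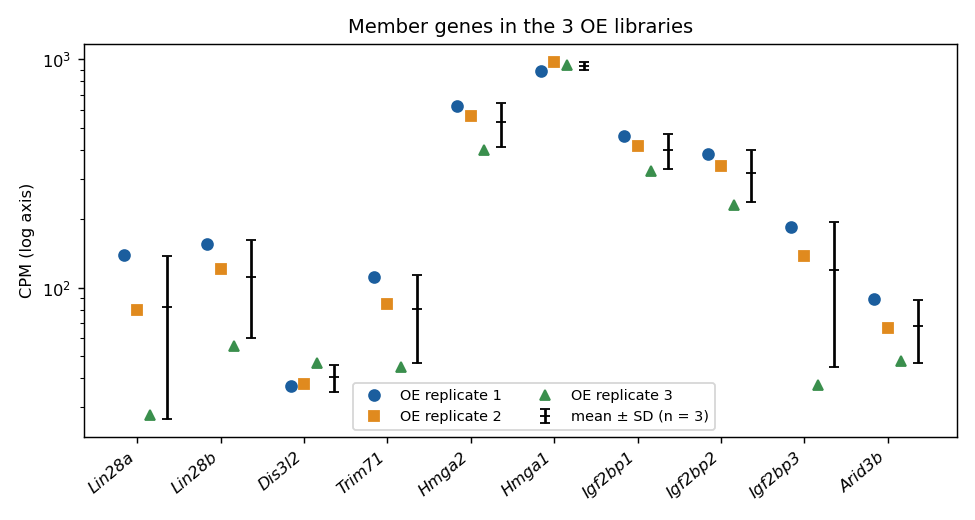
CPM of each gene on a log axis in OE replicates 1 (circles), 2 (squares) and 3 (triangles), with the mean ± SD over the 3 libraries in black. Lin28a and Igf2bp3 spread most, with the highest library at 5.03 and 4.90 times the lowest, while Hmga1 spread least, at 1.09 times.

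The LIN28 genes differed widely between the OE libraries. Lin28a (ENSMUSG00000050966.9, chr4:134003330-134018841, minus strand) was at 139, 80.2 and 27.7 CPM in replicates 1, 2 and 3, from 5379, 2853 and 1044 counts. Lin28b (ENSMUSG00000063804.8, chr10:45376620-45486395, minus strand) was at 156, 121 and 55.7 CPM. Both were highest in replicate 1 and lowest in replicate 3. The mean of Lin28a was 82.4 ± 55.9 CPM and that of Lin28b 111 ± 50.8 CPM (SD, n = 3), and that of Lin28a was 52.5 CPM without replicate 1. The coefficients of variation were 67.8% and 45.8% against a median of 27.0% over all genes tested. Replicate 3 lay below the mean of the other libraries by 1.93 for Lin28a and 1.30 for Lin28b on the log2 scale. Genes of like length differed in the same direction by far less for Lin28a, whose group of 855 genes had a median of -0.06, than for Lin28b, with -0.50. After this median was subtracted, the differences were -1.87 for Lin28a and -0.80 for Lin28b. By TPM with exonic length, Lin28a made up 67.0%, 60.0% and 53.0% of the summed LIN28 level in replicates 1, 2 and 3. The level of these shares depends on the length used for each gene, whereas the count ratio of Lin28a to Lin28b, 0.896, 0.662 and 0.498, uses none. The biological coefficient of variation (BCV, the spread beyond counting noise estimated by edgeR) was 0.513 for Lin28a and 0.379 for Lin28b, against 0.274 and 0.273 for genes of like abundance. Without replicate 3 these values were 0.167 and 0.119, while the value over all genes went from 0.371 to 0.221. Estimates from 2 libraries are drawn towards genes of like abundance, and without replicate 1 that of Lin28a was 0.281.

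DIS3L2, the exonuclease that degrades uridylated pre-let-7, did not follow LIN28 in CPM. Dis3l2 (ENSMUSG00000053333.15, chr1:86703808-87050095, plus strand) was at 37.1, 37.7 and 46.9 CPM in replicates 1, 2 and 3, with a mean of 40.5 ± 5.47 (SD, n = 3), the lowest mean of the set in CPM and in TPM by exonic length. With the transcript of the longest coding sequence as the length, Trim71 was lower in TPM. Its CPM was highest in replicate 3, by 0.33 on the log2 scale as measured and by 0.82 relative to genes of like length. In TPM, Dis3l2 was at 15.6, 13.5 and 13.2, lowest in replicate 3. Its chi-square test against counting noise passed over the 3 libraries (adjusted p = 1.99e-12) but not over replicates 1 and 2 (adjusted p = 0.767). The uridyl transferases Tut4 and Tut7, which act between LIN28 and DIS3L2, were lowest in replicate 3, where Lin28a was also lowest. Tut4 was at 172, 156 and 80.1 CPM and Tut7 at 48.2, 39.98 and 13.5 CPM.

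TRIM71, a stem cell E3 ligase and mRNA repressor, resembled Lin28b. Trim71 (ENSMUSG00000079259.2, chr9:114507133-114564369, minus strand) was at 112, 84.6 and 44.8 CPM in replicates 1, 2 and 3, with a mean of 80.4 ± 33.7 (SD, n = 3). Its deviations from its own mean log2 level differed from those of Lin28b by at most 0.12 in any library. Its replicate 3 difference was -1.12 as measured and -0.62 relative to genes of like length.

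The HMGA genes were the most abundant of the set. Hmga1 (ENSMUSG00000046711.16, chr17:27556497-27563674, plus strand) was at 893, 972 and 943 CPM, a mean of 936 ± 39.6 (SD, n = 3). Its libraries were close together, with a coefficient of variation of 4.23%. Of the 100-base windows of its transcripts, 40.1% also occur in Hmga1b, an intronless copy with 243, 219 and 202 counts, so the split of reads between them is uncertain. Hmga2 (ENSMUSG00000056758.14, chr10:120361275-120476469, minus strand) was at 622, 566 and 400.3 CPM, a mean of 529 ± 115 (SD, n = 3), and was lowest in replicate 3. Relative to genes of like length its replicate 3 difference shrank from -0.57 to -0.23, while that of Hmga1, the shortest gene of the set, went from 0.02 to -0.36. The BCV was 0.224 for Hmga1 and 0.261 for Hmga2, against 0.285 and 0.281 for genes of like abundance. Of the 10 members, 5 lay above the value for like abundance, as did only 5423 of the 17115 genes tested. A BCV below it is therefore not particular to the HMGA genes. The edgeR estimate is drawn towards genes of like abundance, and the DESeq2 gene-wise estimate for Hmga1 was 0.0389. Without replicate 3 the BCV was 0.130 for Hmga1 and 0.125 for Hmga2, with 0.221 over all genes. Without replicate 2 it was 0.374 and 0.368, with 0.474 over all genes. The share of Hmga1 in the summed HMGA TPM was 82.1%, 84.6% and 88.2% in replicates 1, 2 and 3.

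Among the IGF2BP genes, whose proteins bind and stabilise mRNAs, Igf2bp3 stood apart. Igf2bp1 (ENSMUSG00000013415.9, chr11:95957163-96005940, minus strand) was at 460, 417 and 324 CPM in replicates 1, 2 and 3. Igf2bp2 (ENSMUSG00000033581.17, chr16:22059009-22163299, minus strand) was at 386, 340.2 and 229 CPM. Igf2bp3 (ENSMUSG00000029814.10, chr6:49085223-49214957, minus strand) was at 184, 138 and 37.5 CPM. All of them were lowest in replicate 3, but the highest library exceeded the lowest by 1.42 times for Igf2bp1, 1.69 times for Igf2bp2 and 4.90 times for Igf2bp3. Means were 400.3 ± 69.2, 319 ± 80.8 and 119.8 ± 74.8 CPM for Igf2bp1, Igf2bp2 and Igf2bp3 (SD, n = 3).

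The ratio of Igf2bp1 to Igf2bp3 within a library needs no scaling between libraries, and was 2.50, 3.02 and 8.65 by counts in replicates 1, 2 and 3. The exonic lengths of both genes are similar, at 9682 and 8159 bases, and relative to genes of like length the replicate 3 difference was 0.11 for Igf2bp1, -0.25 for Igf2bp2 and -1.59 for Igf2bp3. Igf2bp3 accordingly made up 18.4%, 15.98% and 6.66% of the summed IGF2BP TPM in replicates 1, 2 and 3. Of its exonic bases, 18.7% lie antisense to Malsu1, whose CPM of 18.3, 22.8 and 34.2 was highest in replicate 3, and the strand setting of the counting was not given in the sources used here.

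**Figure D2:**
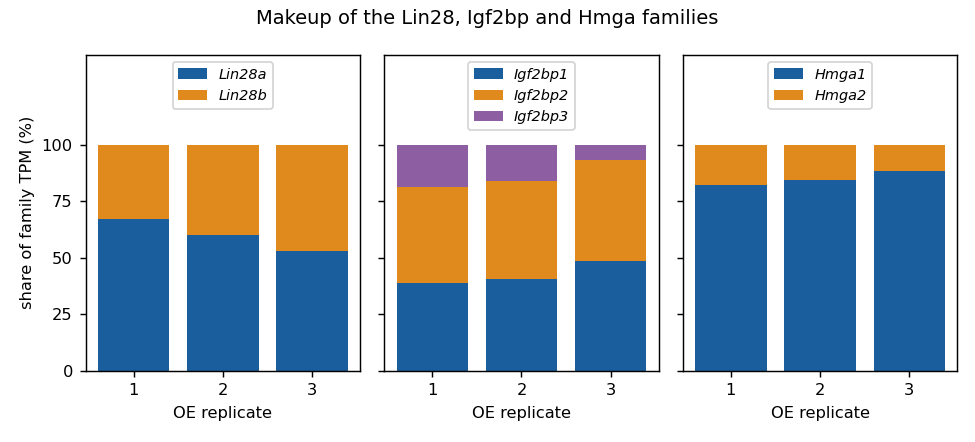
Share of each paralog (%) in the summed TPM of its family in OE replicates 1, 2 and 3, for Lin28 (left), Igf2bp (middle) and Hmga (right). Igf2bp3 takes 18.4% of its family in replicate 1 and 6.66% in replicate 3, and Lin28a 67.0% and 53.0% of its own.

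ARID3B, an AT-rich DNA-binding protein, was intermediate. Arid3b (ENSMUSG00000004661.15, chr9:57790353-57836793, minus strand) was at 89.3, 66.4 and 47.7 CPM in replicates 1, 2 and 3, with a mean of 67.8 ± 20.8 (SD, n = 3). Its replicate 3 difference was -0.69, and -0.28 relative to genes of like length.

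Counted over the set, 8 of the 10 genes were highest in replicate 1 and lowest in replicate 3 by CPM, a pattern held by 34.0% of all genes tested. By TPM all 10 showed it, Hmga1 and Dis3l2 included, against 57.0% of all genes tested. Gene length moved with it, since 1690 of 2600 genes over 8000 bases showed the same pattern and 5 of the members, Lin28b, Igf2bp1, Igf2bp3, Trim71 and Dis3l2, are of that length. Lin28a, Lin28b, Igf2bp3 and Trim71, 4 of 10, were lower in replicate 3 by at least 1 on the log2 scale, against 1720 of the 17115 genes tested (10%). After subtraction of the median of genes of like length, Lin28a and Igf2bp3, 2 of 10, remained past this size, against 8.96%, and 8 of 10 lay below 0, against 49.9%. In replicate 1, Lin28a and Igf2bp3 were higher than the other libraries by at least 1, by 1.56 and 1.35, against 5.57% of all genes tested. All 10 genes passed the test against counting noise, where the background was 81.5%, and 91.2% among genes with a mean of 100 counts or more, as all members have. Without replicate 3, 9 of 10 passed, against 48.8% of all genes tested. That share includes genes down to a mean of 10 counts, where the test has less power than for the members. The share among genes with a mean of 100 counts or more was not computed without replicate 3. The marker lists above moved between the same libraries, with the summed neuron and epithelial markers highest in replicate 1 and the summed red cell, muscle and pigment epithelium markers highest in replicate 3, and their part in these differences was not tested.

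**Figure D3:**
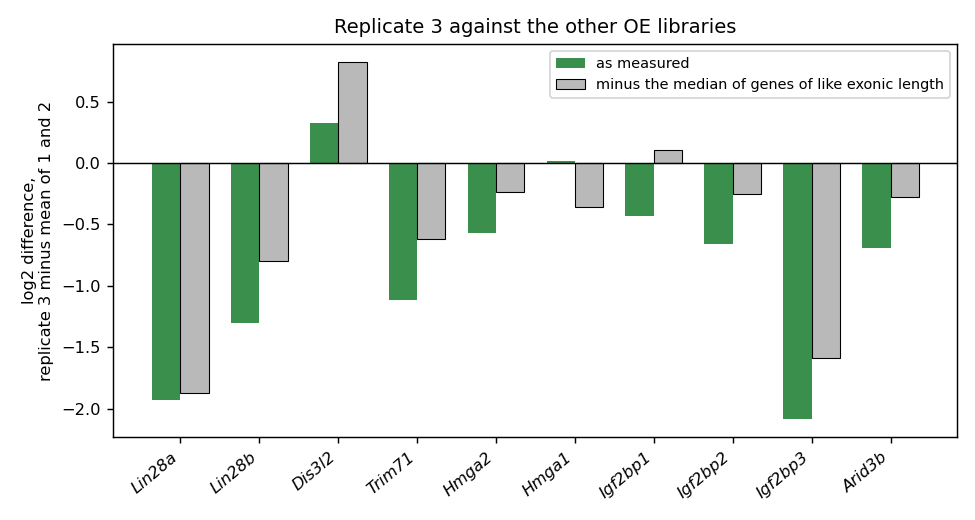
Log2 CPM of OE replicate 3 minus the mean of replicates 1 and 2 for each gene, as measured (green) and after subtraction of the median of genes of like exonic length (grey). Lin28a and Igf2bp3 stay below -1 on both, at -1.87 and -1.59 after subtraction, while Igf2bp1 moves from -0.43 to 0.11 and Dis3l2 lies above 0.

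**Figure D4:**
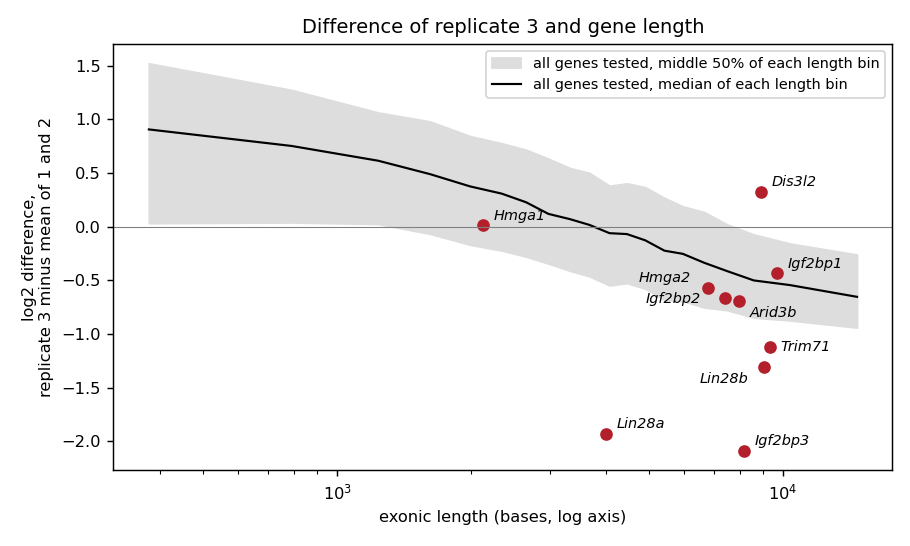
Log2 difference of OE replicate 3 from the mean of the others (y axis) against exonic length in bases (log x axis), with the median of each of 20 length groups of all genes tested as a line and the middle 50% of each group in grey. The line runs from 0.91 for the shortest group to -0.65 for the longest, and Lin28a and Igf2bp3, at -1.93 and -2.09, lie furthest below it.

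The number of let-7 matches in the 3′ UTR was set beside the same difference. The median replicate 3 difference was -0.06 over 12544 genes with no match, -0.26 over 1307 with 1, -0.32 over 156 with 2 and -0.59 over 24 with 3 or more, members left out. Relative to genes of like length the same medians were 0.02, -0.01, 0.04 and -0.15. The 5 members with 2 or more matches, Lin28a, Lin28b, Igf2bp1, Hmga2 and Trim71, had a median of -1.12 as measured and -0.62 relative to genes of like length, and the 5 with 0 or 1 match had -0.66 and -0.28. Igf2bp2 and Arid3b stand in the second group only where the wider match is left out. The medians of that group, -0.66 and -0.28, are the values of Igf2bp2 and Arid3b themselves. The medians of both groups therefore depend on which match is counted. Single genes ranged widely: Igf2bp3, with 1 match, differed by -2.09 and Igf2bp1, with 4, by -0.43, while Hmga1 and Dis3l2, with 0 in the transcript used for the count, differed by 0.02 and 0.33.

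The other genes of the pathway were taken from lists. Of 18 genes that handle let-7 precursors, all passed the test against counting noise. The background was 81.5%, and 91.2% among genes with a mean of 100 counts or more. In replicate 3, 15 of the 18 were lower than in the other libraries, against 51.3% of all genes tested. The median difference of the 18 was -0.50 (-0.15 relative to genes of like length). Tut4 and Tut7 were the only ones lower by at least 1, at -1.03 and -1.70. These are 2 of 18, against 10% of all genes tested. Relative to genes of like length they were at -0.53 and -1.05, so 1 of 18 stayed past this size, against 8.96%. The most abundant, Hnrnpa1, a splicing factor that binds pri-let-7, was at 2427, 2166 and 1726 CPM, and the helicases Ddx5 and Ddx17 of the microprocessor were at 937, 909 and 627 and at 764, 669 and 479 CPM. Of 22 other let-7 targets, all passed the noise test, where the background was again 81.5%, and 91.2% at 100 counts or more. In replicate 3, 19 of the 22 were lower, against 51.3% of all genes tested, and 5 were lower by at least 1, against 10%. Their median difference was -0.60 (-0.35 relative to genes of like length). Relative to genes of like length, 1 of the 22, Plag1, stayed past this size, against 8.96%. No match to the let-7 seed was found in the 3′ UTR of 8 of the 22, Plag1, Mycn and Ccnd1 among them. Plag1, a zinc finger activator of Igf2, was at 14.2, 8.40 and 1.54 CPM and Nr6a1, a nuclear receptor with 8 let-7 matches, at 27.5, 11.7 and 9.66 CPM. The most abundant of this list per length, the ubiquitin-conjugating enzyme Cdc34, was at 172, 222 and 371 CPM, highest in replicate 3. Mycn was at 212, 178 and 147 CPM and Ccnd1 at 229, 237 and 110 CPM.

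Igf2, the mRNA for which the IGF2BP proteins are named, was at 47.8, 22.8 and 2.81 CPM in replicates 1, 2 and 3, and H19, the non-coding RNA of the same imprinted locus, at 1373, 1287 and 1234 CPM. The highest library exceeded the lowest by 17.0 times for Igf2 and 1.11 times for H19. By mean TPM, Igf2 ranked 6999th among protein-coding genes. Reads that lie on more than 1 gene were left out of the counts. Overlap with the exons of other genes was examined for the members only, so a loss of Igf2 reads by overlap was not tested. Of 7 RNAs known to be bound by IGF2BP proteins, H19 included, 6 were lower in replicate 3 than in the other libraries, against 51.3% of all genes tested. Cd44 was at 6.06, 4.10 and 1.33 CPM, while Actb, at 2238, 2667 and 3845 CPM, was highest in replicate 3. Lin28a is also a gene of pluripotent cells and primordial germ cells. The 12 genes listed for these cells were at or near 0: the highest value in any library was 0.759 CPM, for Ddx4 in replicate 2, and Dppa3, Tdgf1 and Prdm14 had 0 counts in all 3 libraries, which allows up to 0.0843 CPM in the shallowest.

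Mature let-7 is not measured in poly-A libraries, and the hairpin rows held 0 counts apart from 1 count of Mirlet7c-1 in replicate 2. The longer genes that contain let-7 hairpins on the same strand were therefore read, by a rule added after the data were seen. Huwe1 (Mir98 and Mirlet7f-2) and Wdr82 (Mirlet7g) were at 463, 438 and 259.8 CPM and at 195, 185 and 155 CPM, lowest in replicate 3 as Lin28a and Lin28b were. The 5 other hosts with at least 10 counts on average were highest in replicate 3, as were 43.2% of all genes tested. 3110039I08Rik, which contains Mirlet7a-2, was at 68.1, 98.0 and 139 CPM, and the protein-coding Spaca6, which contains Mirlet7e, at 28.1, 30.9 and 50.4 CPM. Mir99ahg, with Mirlet7c-1, was at 3.96, 3.54 and 9.58 CPM, D630033A02Rik, with Mirlet7i, at 1.74, 3.17 and 5.12 CPM, and 6720427I07Rik, with Mirlet7a-1, Mirlet7d and Mirlet7f-1, at 3.73, 4.44 and 6.05 CPM. Relative to genes of like length the replicate 3 difference was 2.00 for Mir99ahg, 1.42 for 3110039I08Rik, 1.19 for Spaca6, 0.79 for 6720427I07Rik and 0.62 for D630033A02Rik, against 0.05 for Wdr82 and -0.14 for Huwe1. A host transcript is not a measure of the mature microRNA, and the markers named above moved between the same libraries.

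**Figure D5:**
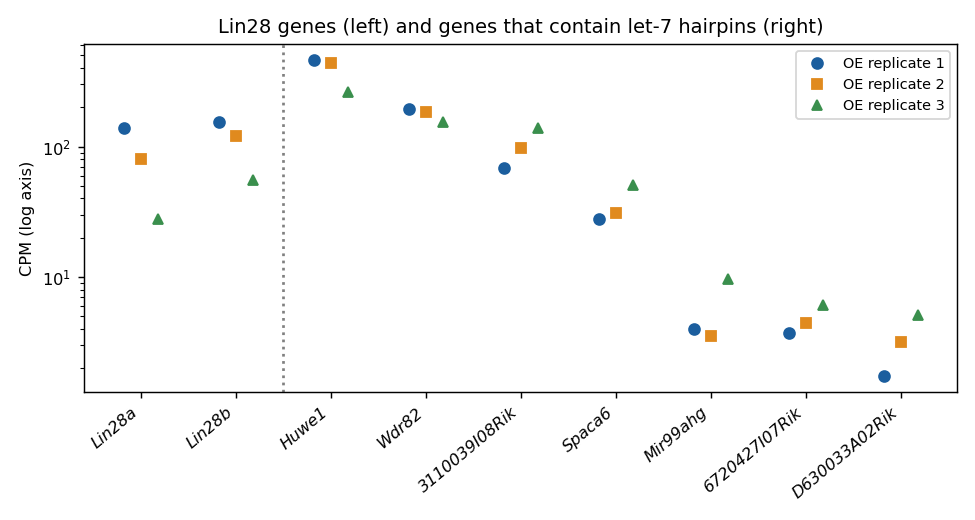
CPM on a log axis in OE replicates 1 (circles), 2 (squares) and 3 (triangles) of Lin28a and Lin28b, left of the dotted line, and of 7 genes that contain let-7 or miR-98 hairpins, right of it. Lin28a goes from 139 in replicate 1 to 27.7 in replicate 3, and 3110039I08Rik from 68.1 to 139.

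Genes whose deviations over the 3 libraries were most like those of a member were found among the 11859 genes that averaged 100 counts or more. For Lin28b they were Jmy, Eea1 and Slc25a24, for Igf2bp1 Sort1, Tent4a and Abhd17b, and for Hmga2 2310057M21Rik, Psme4 and Lrrc40, each with a largest difference of about 0.01 or less on the log2 scale in any library. Within 0.1 in every library lay 202 genes (1.70%) for Lin28b, 1143 (9.64%) for Igf2bp1 and 1176 (9.92%) for Hmga2. Among the members themselves, Igf2bp2 and Hmga2 (0.06) and Igf2bp1 and Hmga2 (0.09) were this close, while Lin28a and its paralog Lin28b were 0.43 apart and Lin28a and Igf2bp3 0.25 apart.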

How the data were processed

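Total RNA of dissected E10.5 OE maxillary prominences was poly-A selected and sequenced by the study. The authors deposited raw counts per gene, as whole numbers without normalization. The submitters' processing notes name FastQC, STAR 2.7.3a, HTSeq 0.12.4 and mm10. The annotation release and strand setting are not given in the sources used here.

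Rows of reads not given to a single gene (14.2%, 15.7% and 16.4% in replicates 1, 2 and 3) were left out. These include reads that lie on more than 1 gene, at 6.11%, 6.095% and 6.96%. Of 55401 identifiers, 55141 matched GENCODE M21, which gave names and exonic lengths. RefSeq gave the microRNA sequences, and 3′ UTR letters came from the GENCODE transcripts. CPM used TMM factors (edgeR 4.0.16, R 4.3.3) and TPM exonic length. Log2 CPM (prior count 2) of a library was compared with the mean of the others, also after centring on 20 length groups, for the 17115 genes that averaged 10 counts or more. Counting noise was tested by chi-square with Benjamini-Hochberg adjustment (scipy 1.17.1), and BCV came from an edgeR fit with an intercept only. The statistics were tested on simulated data. A count of 0 allows 3 counts, or 0.0777, 0.0843 and 0.0796 CPM in replicates 1, 2 and 3. Limits and tests cover counting error and the spread between these 3 samples only.

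The members and the gene lists were chosen with earlier results of these data known. The text names all members, up to 3 genes of highest mean TPM and 2 of largest ratio between libraries (mean count of at least 100) in each pathway list, and the 3 genes most like Lin28b, Igf2bp1 and Hmga2. Other named genes were chosen after their values were seen. No group other than OE was analysed, so no test between genotypes was made.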

Additional observations from a re-analysis of the deposited data

How the results depend on the processing

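No paired analysis was possible because all libraries belong to 1 group. With DESeq2 size factors (DESeq2 1.42.0) or totals alone, no member's mean level changed by more than the spread between libraries. The mean of Lin28a was 82.4 CPM, and 52.5 CPM without replicate 1. The order by TPM kept 6 of 10 ranks with the longest transcript and 5 of 10 with the transcript of the longest coding sequence as the length, while Hmga1, Hmga2, Igf2bp2 and Igf2bp1 led under both. Genes beyond counting noise numbered 13951, and 8245 to 13429 with a library left out, the lowest without replicate 3. The BCV over all genes was 0.371, 0.390 with all genes of at least 1 count and 0.252 as the median of DESeq2 estimates, and 0.221 to 0.474 with a library left out, the lowest without replicate 3 and the highest without replicate 2. The number of let-7 matches in the members was 21, and 33 when a 7-mer ending in A opposite base 1 also counted. Length centring changed the sign of the replicate 3 difference of Igf2bp1 and Hmga1. Dis3l2 was the member whose noise test did not pass without replicate 3. Depth limits no member, since each had at least 1044 counts, while 3 libraries of 1 group limit every comparison.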
